A study of Rattus norvegicus with 23 samples.

Results

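The genes described here encode subunits of the voltage-gated sodium channel. They were 8 listed genes, the alpha subunit genes *Scn1a*, *Scn3a*, *Scn4a*, *Scn7a* and *Scn10a* and the beta subunit genes *Scn2b*, *Scn3b* and *Scn4b*. A probe was taken where the transcript accession in the scanner files belonged to a listed gene, which gave 9 probes for 7 of the 8 genes among 45598 probes and 16544 named genes. No probe was matched to *Scn7a*. All 7 matched genes passed the filter on low values, with 16089 genes tested over the 6 regions.

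The RNA came from 6 regions of male Wistar rats 8 to 11 weeks old, with no treatment or altered allele named in the labels. The regions were the left atrium (LA) next to the pulmonary vein, the left ventricle (LV), the right ventricular free wall (RV), the sinoatrial node region (SA), the pulmonary vein (PV) and the pulmonary artery (PA), on 4 arrays each except 3 for RV. An SA sample was tissue of 2 rats, and 12 rats gave all the tissue, so that arrays of different regions can share an animal. The methods also state that an LV mass was cut into 3 parts that served as samples, so LV arrays can come from the same rat. V stands for LV and RV together, and heart, where it is set against PA, for the mean of the 5 other regions, PV included.

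Voltage-gated sodium channels open when the membrane depolarizes and carry the fast inward current at the start of the action potential in muscle and nerve. The alpha subunit forms the pore. Beta subunits are small proteins with a single membrane span and an immunoglobulin-like outer domain, which tune gating and surface expression of the pore and act in cell adhesion. In the heart this current sets how fast an impulse spreads through working muscle, and the center of the sinoatrial node relies on it less.

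Values are log2 of the deposited normalized signal plus 1, written with the SD over arrays. A difference was called where the limma test, adjusted over all genes by the Benjamini-Hochberg method, gave p under 0.05. A spot was well above background where the scanner software marked it so, which held for 58.6% to 79.8% of probes per array. This share was 72.7% to 79.8% on the 11 arrays of the first row of a slide and 58.6% to 69.4% on the 12 arrays of the second row, and no spot of a member was saturated. The number of arrays limits the precision of every value, and the labels do not tie replicates to separate rats, so p-values measure the spread between these samples. Levels of different genes are not set against each other, since each probe has its own response. In whole tissue, fewer cells of a type and less RNA per cell cannot be told apart.

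Marker genes were checked against the labels. The summed signal of 3 ventricular myocyte markers was 773000 to 1030000 on the 7 V arrays and at most 104000 elsewhere. All 4 sinoatrial markers were higher in SA than in LA. The summed signal of 5 atrial myocyte markers was 1060000 to 1380000 in LA, SA and PV and 3300 to 36000 in PA, and that of 6 smooth muscle markers was 656000 to 786000 in PA and at most 91200 elsewhere. PV held the highest sums of Schwann cell markers, 13200 to 18500 against 4170 to 5990 in LA, and its sum of autonomic neuron markers ran from 1850 to 15600 against 786 to 1100 in LA. Of 10 skeletal muscle markers 8 were tested, and *Myh2* and *Cacna1s* were well above background on no array of any region. Of 3 brown fat markers 1, *Ucp1*, was higher in SA and in PV than in LA (by 6.74 and 4.88). In PA 2 of the 3 were higher than in heart and 1 was lower. Of 4 endothelial markers 3 were lower in SA than in V, and 3 in PA than in heart.

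The 6 regions differed in 6 of the 7 measured subunit genes, in an F-test that called 64.4% of all genes. *Scn2b* had an adjusted p of 4.46e-15, *Scn1a* 8.33e-13, *Scn4b* 1.72e-13, *Scn3b* 1.64e-06, *Scn10a* 0.00176 and *Scn3a* 0.0022, while *Scn4a* was not called (adjusted p = 0.108). All 7, *Scn4a* included, were called with slide as a term, after normexp background correction, and without PA4 or RV1. In the F-test over LA, V and SA alone, which called 40.5% of 15809 genes, 4 members passed. These were *Scn4b* (adjusted p = 6.49e-08), *Scn2b* (5.83e-05), *Scn10a* (0.000405) and *Scn1a* (0.0259), and *Scn3b* had 0.0501. Among 105 pairs of regions over the 7 genes 54 were called, where 31.2% of all genes times pairs were, and 26 of 70 without PA, where 19.9% were. The counts include *Scn10a*, which was well above background on 2 of 23 arrays and gave 5 of the 54 pairs. With only genes well above background kept, 5 of 6 members differed among the 6 regions. *Scn4b* differed in 14 of its 15 pairs, *Scn2b* in 11, *Scn3b* in 9, *Scn1a* in 8, *Scn10a* and *Scn3a* in 5 each and *Scn4a* in 2. The share of all genes called per pair ran from 0.522% for LV and RV to 55.8% for LV and PA.

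**Figure D1:**
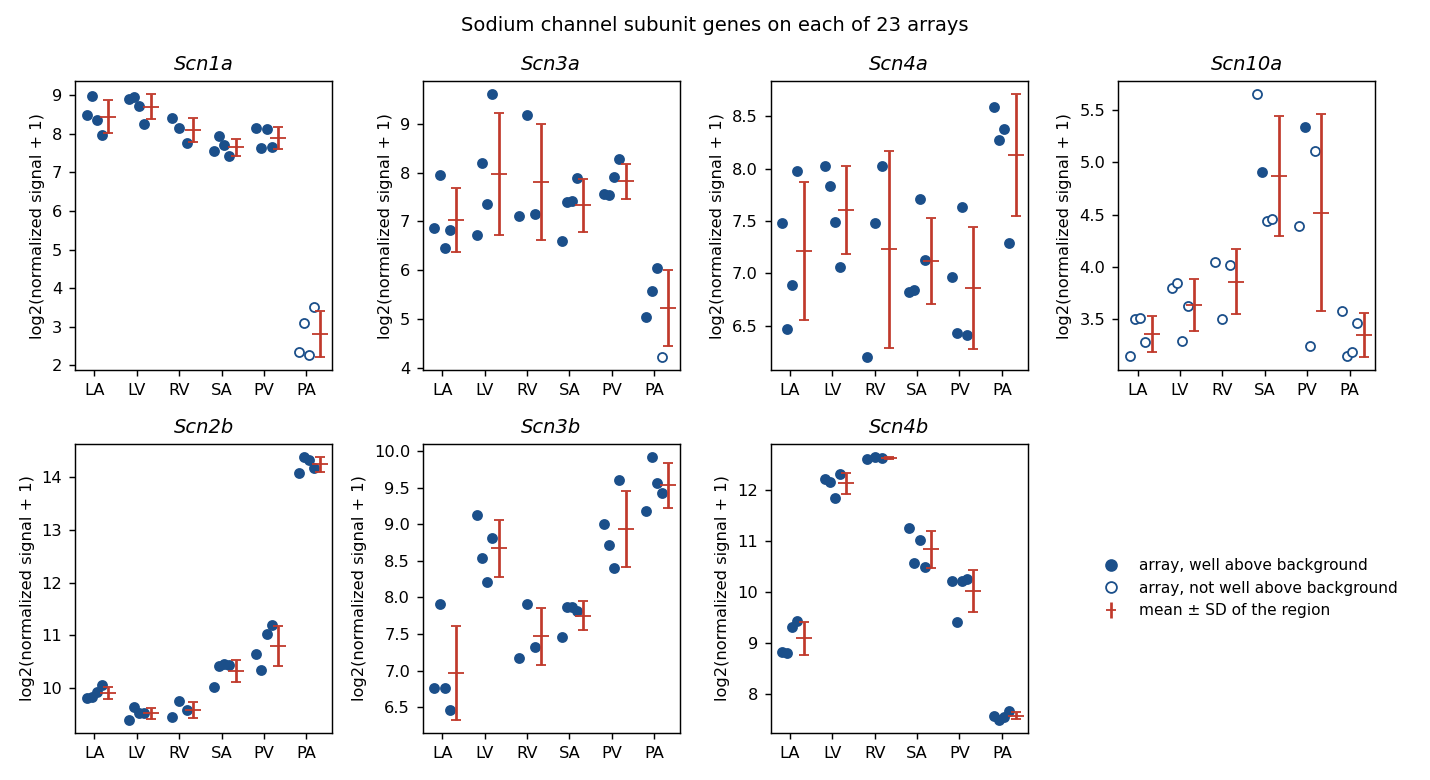
Log2 of the normalized signal plus 1 (vertical axis, a separate scale per gene) of the 7 measured subunit genes in the 6 regions. Each point is an array, open where its spot was not well above background, and bars give the mean ± SD. *Scn4b* was 11.83 to 12.63 on the V arrays and 7.50 to 7.67 on the PA arrays, while *Scn2b* was 14.08 to 14.37 on the PA arrays and at most 11.20 elsewhere.

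*Scn2b* and *Scn4b* lie on the same strand of rat chromosome 8 and showed opposite orders of regions at both ends. *Scn4b* was highest in RV and LV and lowest in PA, and *Scn2b* was highest in PA and lowest in RV and LV. For this reason the 250 bases before each start site are shown here, from RefSeq on build GRCr8, on the plus strand, at chr8:54322133-54322382 for *Scn2b* and chr8:54343623-54343872 for *Scn4b*. Capitals mark matches to the E-box CANNTG, which reads as the same motif on both strands.
Scn2b: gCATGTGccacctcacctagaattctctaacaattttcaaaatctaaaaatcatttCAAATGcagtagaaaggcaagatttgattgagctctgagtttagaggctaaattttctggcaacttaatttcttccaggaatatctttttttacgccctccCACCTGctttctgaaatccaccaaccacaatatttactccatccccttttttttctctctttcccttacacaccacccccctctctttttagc
Scn4b: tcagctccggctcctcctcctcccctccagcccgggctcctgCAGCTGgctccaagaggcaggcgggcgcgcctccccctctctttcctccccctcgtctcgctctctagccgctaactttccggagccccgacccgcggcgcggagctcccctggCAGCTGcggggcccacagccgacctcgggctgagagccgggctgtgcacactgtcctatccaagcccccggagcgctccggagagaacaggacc
The *Scn2b* stretch held 3 E-box matches and 38.8% G or C, and that of *Scn4b* held 2 matches and 71.6% G or C. Over all 33469 promoters of the table the median was 51.2% G or C, and 65.5% held at least 1 E-box match, so a match is common. Both *Scn4b* matches read CAGCTG, at bases -208 to -203 and -94 to -89 from the start site, and the *Scn2b* matches lay at -249 to -244, -194 to -189 and -93 to -88. Of the 8 listed genes 6 had a promoter in the table, with 3 E-box matches for *Scn4a*, 1 each for *Scn7a* and *Scn10a* and none for *Scn3a*. The letters of a GATA site (AGATAA, in 10.3% of all promoters on either strand), a T-box core (AGGTGT, 11.6%), a TATA box (TATAAA, 12.9%), a CArG box (1.5%) and a MEF2 site (2.96%) were not in these 6 windows. Where motifs overlapped they were counted apart, and a match is a description of letters only.

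*Scn4b* encodes a beta subunit that binds the pore through a disulfide bond and is known for its part in resurgent sodium current. Its normalized signal was 3640, 4510, 4740 and 5050 on the LV arrays and 6210, 6260 and 6360 on the RV arrays. It was 446, 454, 634 and 688 on the LA arrays, 1440, 1510, 2060 and 2420 on the SA arrays and 678, 1180, 1190 and 1220 on the PV arrays. The PA arrays had 180, 187, 191 and 202. The V arrays stood above all SA arrays, the SA arrays above all PV arrays and all arrays of the heart above those of PA, while PV2, the lowest of PV, lay among the LA arrays.

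The order of *Scn4b* was thus RV (12.62 ± 0.02, n = 3), LV (12.12 ± 0.21, n = 4), SA (10.83 ± 0.36, n = 4), PV (10.02 ± 0.41, n = 4), LA (9.09 ± 0.32, n = 4) and PA (7.58 ± 0.07, n = 4). RV and LV were the only neighbors in this order that the test did not separate. Their difference was 0.50 (SE 0.21) with an adjusted p of 0.381, although the 2 sets of arrays did not overlap. LA was lower than V by a log2 difference of -3.28 (SE 0.17, 9.68-fold, adjusted p = 3.33e-11), and V is the mean of the LV and RV means here. SA was lower than V by -1.54 (2.91-fold, adjusted p = 1.22e-06) and higher than LA by 1.73 (3.32-fold, adjusted p = 9.23e-06). Within a row some regions are a single array, SA2 and PV2 in the first row and LA2 and RV2 in the second, so that every within-row test given here assumes such an array to vary like the other groups. On the arrays of the first row alone LA stood -3.12 from V, and on those of the second row, with LA2 alone, -3.62. The difference of SA from LA was 1.37 in the first row, with SA2 alone, and 2.11 in the second, with LA2 alone.

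PV and PA extended this order. *Scn4b* in PV exceeded LA by 0.93 (SE 0.20, adjusted p = 0.00306) and fell below SA by -0.80 (SE 0.20, adjusted p = 0.0283). The former was 0.22 in the first row, where PV2 is the PV array, and 1.42 in the second, and with LA and PV arrays alone in the fit its adjusted p was 0.0585. The latter call was lost without PV2 (-0.60, adjusted p = 0.0698), PV4 (0.051), SA1 (0.109) or SA3 (0.0913). It was also lost with unnamed accessions kept and with only PV and SA arrays in the fit. In PA *Scn4b* was below the mean of the heart regions by -3.36 (SE 0.15, 10.3-fold, adjusted p = 1.42e-13) and was well above background on all 4 arrays. The 3 ventricular markers also fell from V to LA in 3 of 3 and to SA in 3 of 3, and in PA against heart in 3 of 3. In SA and in PV against LA, where *Scn4b* was higher, no ventricular marker was called higher and 1 of 3 was called lower (*Irx4*, by -1.71 and -1.80). *Myl2* (1.33 and 1.58) and *Myl3* (-0.64 and 0.25) were not called. The summed signal of the 3 ventricular markers was 27300 to 49800 in LA, 52800 to 69300 in SA and 69000 to 104000 in PV. The smooth muscle markers were higher in SA and in PV than in LA in 6 of 6 each, and the sinoatrial markers in 4 of 4 and 3 of 4. The part of the cell types of these markers in the *Scn4b* differences was not tested.

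*Scn2b* encodes a beta subunit of the disulfide-linked kind, best known from neurons. Its signal was 17400, 18300, 20600 and 21200 on the PA arrays against 1310, 1590, 2080 and 2350 on the PV arrays. SA had 1040, 1370, 1390 and 1390, LA 905, 915, 975 and 1070, LV 675, 732, 735 and 794, and RV 699, 767 and 858. The PA arrays stood far above every array of the heart, and LA, with no overlap, above V.

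In PA the level of *Scn2b* was 14.24 ± 0.14 (n = 4), and it exceeded the heart mean by 4.21 (SE 0.11, 18.4-fold, adjusted p = 6.56e-17). The difference was 4.27 on the first row and 4.18 on the second. PV (10.80 ± 0.38, n = 4) exceeded LA (9.91 ± 0.11, n = 4) by 0.89 (SE 0.15, adjusted p = 0.000381), with 0.41 in the first row and 1.12 in the second, each with a single array on a side. SA (10.33 ± 0.21, n = 4) exceeded V by 0.78 (SE 0.13, adjusted p = 0.000128), with 0.93 and 0.64 in the rows. LA exceeded V by 0.36 (SE 0.13, adjusted p = 0.0394), with 0.45 in the first row and 0.18 in the second, where LA2 and RV2 are alone. The call was lost with unnamed accessions kept (adjusted p = 0.0601), and leaving out any of 9 arrays ended it, namely all 4 LA arrays, LV1, LV3, LV4, RV1 or RV3, with values from 0.31 to 0.39. Neighbors that the test did not separate were PV and SA (adjusted p = 0.0892), SA and LA (0.0608), LA and RV (0.155) and RV and LV (0.937). Without PV2 the difference of PV from SA was called (0.62, adjusted p = 0.0135), and that of SA from LA was called without PV2 (0.42, 0.0259), PV4 (0.0354) or SA1 (0.52, 0.0261). The difference of SA from LA was also called with replicate number or slide as a term and after normexp, among other settings.

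The smooth muscle markers moved with *Scn2b* in some comparisons but not in LA against V. All 6 were higher in PA than in heart, in PV than in LA, and in SA than in V, and 4 were lower in LA than in V. Their summed signal had the medians 715000 in PA, 83300 in PV, 27500 in SA, 5410 in LA, 6290 in LV and 11400 in RV. In LA against V they and *Scn2b* went opposite ways. The autonomic neuron sum was 1870 to 3710 in PA, within the range of PV, and *Scn2b* in PA was above every PV array. The part of smooth muscle or nerve in the *Scn2b* differences was not tested.

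**Figure D2:**
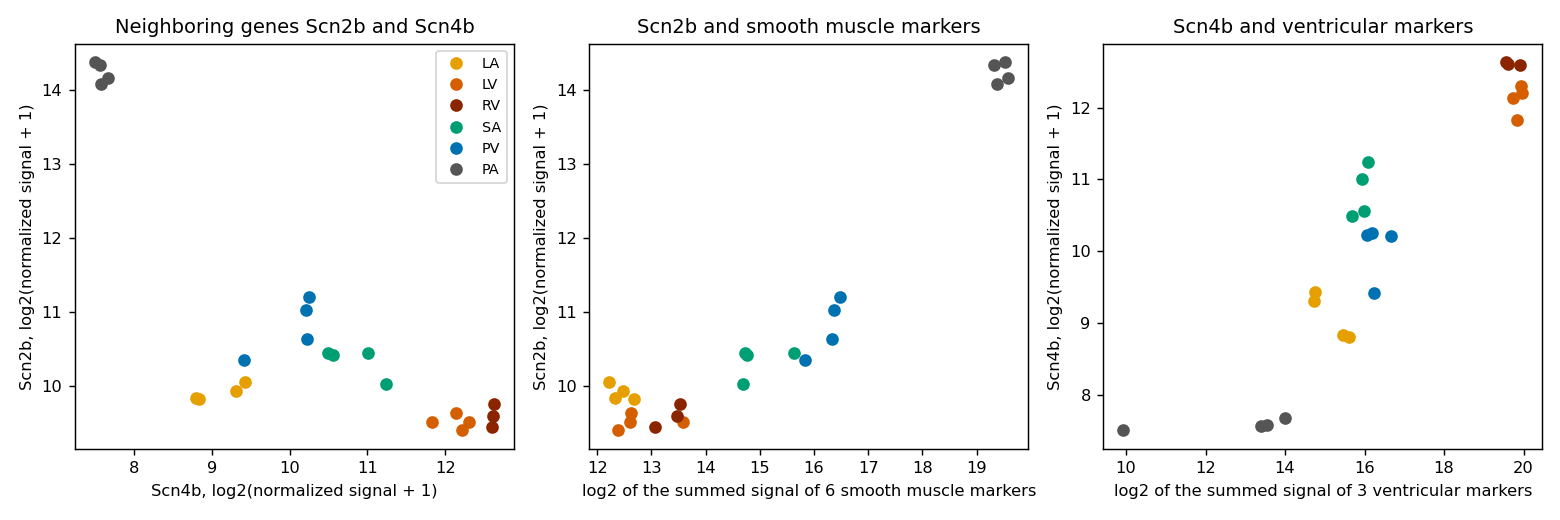
Each point is an array, colored by region. The left panel plots *Scn2b* against *Scn4b*, the middle panel *Scn2b* against the log2 summed signal of 6 smooth muscle markers, and the right panel *Scn4b* against the log2 summed signal of 3 ventricular markers. PA stands apart with high *Scn2b* (14.24 on average) and low *Scn4b* (7.58), and V is at the other end of the left panel.

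*Scn2b* and *Scn3a* each had 2 probes. The probes of *Scn2b* match different transcript accessions and correlated at r = 0.89 over the 23 arrays. The dimmer was well above background on 3 of 4 PA arrays and nowhere else, with log2 values of 5.36 to 6.01 in PA and at most 4.25 on any other array, so both probes were highest in PA. The brighter probe was the higher on all 23 arrays, so the *Scn2b* differences among the heart regions come from that probe alone. The dimmer probe had another order there, with means of 3.73 in SA, 3.52 in LV, 3.34 in PV, 3.27 in LA and 3.13 in RV. An r without PA was not computed for the 2 probes. The probes of *Scn3a* correlated at r = 0.71, and the probe drawn as triangles was the higher on 16 of 23 arrays and that drawn as circles on 7.

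**Figure D3:**
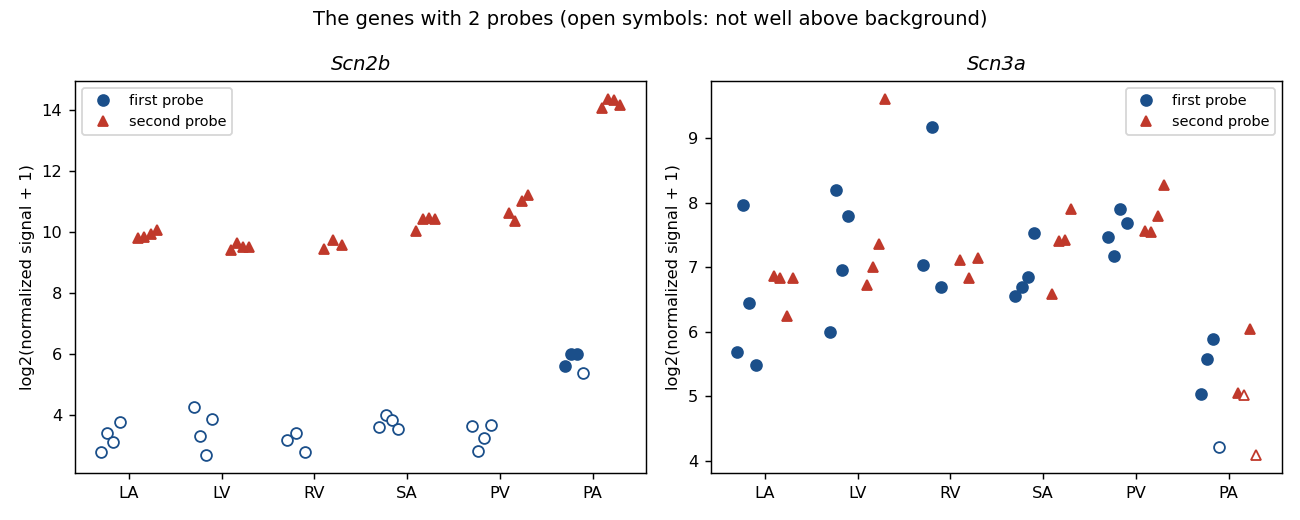
Log2 of the normalized signal plus 1 of the 2 probes of *Scn2b* and of *Scn3a* by region. Each symbol is an array, a circle for one probe and a triangle for the other, open where not well above background. For *Scn3a*, the array with 781 (LV4) is high on the probe drawn as triangles and the array with 579 (RV2) on that drawn as circles.

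*Scn3b* encodes a beta subunit that binds the pore without a disulfide bond and changes how fast the channel recovers from inactivation. Its signal was 580, 688, 759 and 968 on the PA arrays, 336, 419, 513 and 779 on the PV arrays and 295, 372, 447 and 558 on the LV arrays. SA had 175, 225, 232 and 233, RV 144, 160 and 240, and LA 87.1, 107, 107 and 240. PA, PV and LV thus stood above SA, RV and LA, whose arrays overlapped among themselves.

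*Scn3b* followed the order PA (9.53 ± 0.31, n = 4), PV (8.93 ± 0.52, n = 4), LV (8.67 ± 0.39, n = 4), SA (7.75 ± 0.20, n = 4), RV (7.47 ± 0.39, n = 3) and LA (6.97 ± 0.64, n = 4). LV and SA were the only neighbors that the test separated (0.92, SE 0.30, adjusted p = 0.0263). PV exceeded LA by 1.96 (SE 0.30, 3.88-fold, adjusted p = 0.000175), with 2.05 in the first row and 1.09 in the second, each with a single array on a side. PV exceeded SA by 1.18 (SE 0.30, adjusted p = 0.0339). This call was lost with the scanner signals in place of the deposited values (1.18, adjusted p = 0.0531) and without PV1 (1.15), PV4 (0.95), SA1 (1.08), SA2 (1.21), SA3 (1.22) or SA4 (1.20), with adjusted p from 0.057 to 0.143. It was also lost after normexp, with unnamed accessions kept and with only PV and SA arrays in the fit. LA was lower than V by -1.10 (SE 0.26, adjusted p = 0.00256), with -1.30 in the first row and -0.38 in the second, where LA2 is the LA array. In PA the gene exceeded the heart mean by 1.56 (SE 0.23, 2.96-fold, adjusted p = 6.04e-06), with 1.54 and 1.43 in the rows.

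The ventricles did not overlap in *Scn3b*. LV exceeded RV by 1.20 (SE 0.32, 2.30-fold), with an unadjusted p of 0.00137 and an adjusted p of 0.106. The difference was 1.41 in the first row and 0.77 in the second, where RV2 is the RV array, and it was called without LA2 (1.20, adjusted p = 0.0469). LA2 also decided the comparison of SA with LA, which was 0.78 with it (adjusted p = 0.0848) and 1.09 without it (0.0111). In PV the autonomic neuron markers were higher than in LA in 6 of 9 and the Schwann cell markers in 6 of 10. The PV array with the highest neuron sum, PV4 with 15600, also had the highest *Scn3b*, and PV3 had the lowest of both (1850). The smooth muscle markers were higher in PV than in LA in 6 of 6 (median 3.57), in PV than in SA in 5 of 6 and in PA than in heart in 6 of 6 (median 5.57). The part of nerve or smooth muscle in the *Scn3b* differences was not tested, and LV had neuron sums of 949 to 1240 beside its high *Scn3b*.

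*Scn1a* encodes a pore best known from inhibitory neurons of the brain. Its signal was 249, 329, 361 and 503 on the LA arrays, 304, 419, 480 and 498 on the LV arrays and 216, 283 and 337 on the RV arrays. PV had 199, 202, 277 and 284, and SA 170, 188, 207 and 244. All 19 arrays of the heart were well above background, and none of the 4 PA arrays was, with 3.8, 4.1, 7.6 and 10.4.

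The *Scn1a* means ran from LV (8.71 ± 0.32, n = 4) over LA (8.45 ± 0.42, n = 4), RV (8.10 ± 0.32, n = 3) and PV (7.90 ± 0.28, n = 4) to SA (7.65 ± 0.22, n = 4), and no neighbors among these 5 were separated. SA was lower than V by -0.75 (SE 0.23, adjusted p = 0.0199) and lower than LA by -0.80 (SE 0.26, adjusted p = 0.0463). In the rows the first of these was -0.51 and -0.82 and the second -0.34 and -1.42, with SA2 alone in the first row and LA2 alone in the second. The call against V was lost without SA1 (-0.72, adjusted p = 0.0533) or SA4 (-0.67, 0.0708). The call against LA was lost without any of 12 arrays (LA1, LA2, LA3, LV1, LV2, LV3, RV2, PV3, PV4, SA1, SA3 or SA4), with values from -0.83 to -0.62. It was also lost with replicate number or slide as a term, with unnamed accessions kept and with only LA and SA arrays in the fit. LV exceeded RV by 0.61 (unadjusted p = 0.0463, adjusted p = 0.448). Against the heart mean PA was lower by -5.36 (SE 0.20, adjusted p = 1.03e-14) as measured. No PA array was above background. With PA set on each array at the higher of its own value and the lowest signal well above background, heart was 14.4-fold higher. Unmarked spots can exceed that signal, as the dimmer *Scn2b* probe did on PA4 (40.0 against 25.1), so this is no strict lower bound. After normexp background correction the difference was -2.01. That method adds an offset of 50 to the signals, so it understates differences from dim spots and cannot be set against the 14.4-fold. The atrial and ventricular myocyte markers were lower in PA in 5 of 5 and 3 of 3. In SA against V the ventricular markers were lower in 3 of 3, the atrial markers higher in 4 of 5 and the endothelial markers lower in 3 of 4. The smooth muscle markers were higher in SA than in V and in LA in 6 of 6 each. The part of the cell types of these markers in the *Scn1a* differences was not tested.

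*Scn3a* encodes a pore known from embryonic neurons. Its signal was 105, 164, 292 and 781 on the LV arrays, 137, 141 and 579 on the RV arrays and 86.5, 113, 116 and 248 on the LA arrays. SA had 95.4, 168, 172 and 237, PV 185, 188, 239 and 310, and PA 17.6, 32.2, 46.7 and 64.8, with 3 of 4 PA arrays well above background. The arrays of the 5 heart regions overlapped, none of the 10 pairs among them was called, and all PA arrays were below them. PA (5.22 ± 0.78, n = 4) was lower than the heart mean by -2.37 (SE 0.44, adjusted p = 9.25e-05) as measured and by -2.25 with the PA array not above background set at the lowest signal well above background, with -1.62 in the first row and -3.36 in the second, and -1.04 after normexp. The atrial and ventricular markers were lower in PA in 5 of 5 and 3 of 3 and the smooth muscle markers higher in 6 of 6, and their part in the *Scn3a* difference was not tested. The highest LV and RV arrays were high on different probes, LV4 with 781 against 221 on the other probe and RV2 with 579 against 113. In the fit with the row as a term, *Scn3a* was 0.76 (SE 0.32) higher on the second row, with an unadjusted p of 0.0308 and an adjusted p of 0.364.

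*Scn4a* encodes the pore of skeletal muscle fibers. Its signal was 156, 308, 332 and 384 on the PA arrays, 132, 179, 226 and 259 on the LV arrays and 72.3, 178 and 259 on the RV arrays. LA had 87.7, 118, 178 and 252, SA 112, 113, 139 and 208, and PV 83.9, 85.2, 123 and 197. PA overlapped with every other region, and it exceeded SA by 1.01 (adjusted p = 0.0435) and PV by 1.28 (adjusted p = 0.0123), the 2 pairs that were called. In LA, LV, PA, PV and SA, the *Scn4a* signal was higher on the arrays of slide 3 than on those of slide 1. PA1 and PA2 (384 and 308) were on slide 3 and PA4 (156) on slide 1. SA3 and PV3 were on slide 3 and SA1, SA2, PV1 and PV2 on slide 1, so these 2 pairs also differ in slide. PA (8.13 ± 0.58, n = 4) exceeded the heart mean by 0.93 (SE 0.32, adjusted p = 0.0163), with 1.37 in the first row and 0.66 in the second, and this call was lost without PA1 (0.78, adjusted p = 0.0757) or PA3 (0.85, 0.0582). Of the 8 skeletal muscle markers tested, 2 were higher in PA than in heart, *Tnnt3* by 0.99 (adjusted p = 0.000117) and *Actn3* by 1.20 (adjusted p = 2.93e-05), and *Myh4* was lower by -1.30 (adjusted p = 0.0163). The summed signal of the 8 skeletal muscle markers was 1320 to 1680 in PA and 989 to 1760 elsewhere. The smooth muscle markers were higher in PA than in heart in 6 of 6, and the atrial and ventricular markers lower in 5 of 5 and 3 of 3. The part of the cell types of these markers in the *Scn4a* difference was not tested.

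*Scn10a* encodes a pore known from sensory neurons of the dorsal root ganglia and from intracardiac neurons. It was dim, and well above background on 2 of 23 arrays, SA2 with 4.91 and PV2 with 5.34 on the log2 scale, both in the first row. The SA arrays had 4.44, 4.46, 4.91 and 5.65 and the PV arrays 3.25, 4.39, 5.11 and 5.34, so the highest SA array, SA1 in the second row, was not above background. LA had 3.15 to 3.51, LV 3.29 to 3.85, RV 3.50 to 4.05 and PA 3.15 to 3.58. The SA arrays did not overlap with LA or V, and 3 of 4 PV arrays lay above LA.

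The *Scn10a* signal differences are between arrays mostly at background, since the probe was well above it on 1 of 4 SA, 1 of 4 PV and no LA or V arrays, and they give no size for a difference in RNA level. As measured, the SA signal stood 1.12 above V (SE 0.30, adjusted p = 0.00829) and 1.51 above LA (SE 0.34, adjusted p = 0.00485). The PV signal stood 1.16 above LA (SE 0.34, adjusted p = 0.0274), and the call was lost without LA1 (1.09), LA4 (1.14), PV2 (0.89) or PV4 (0.97), with adjusted p from 0.0592 to 0.104. In the rows SA stood 1.60 and 1.35 above LA and PV 2.03 and 0.75, each with a single array on a side (SA2 or PV2, then LA2). After normexp the differences were 0.36 for SA against V, 0.73 for SA against LA and 0.54 for PV against LA, all called. The probe was above background on no PA array and on 2 of 19 heart arrays, and the lowest signal well above background on the PA arrays exceeded the heart mean, so no direction is given for PA. In SA no autonomic neuron marker was higher than in LA among 9 tested, 6 were in PV, and *Elavl4* was above background on no SA or LA array. Against V, 1 of 9 neuron markers was higher in SA (*Uchl1* by 2.08, adjusted p = 0.000144), as were 4 of 10 Schwann cell markers. The part of nerve in the *Scn10a* differences was not tested.

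Set beside all genes, 3 of 7 members were called between LA and V, where 35.4% of all genes were. Of these 1 was higher in LA (16.9% of all genes) and 2 lower (18.4%). Between SA and V 4 were called (28.1% of all genes), 2 higher (12.3%) and 2 lower (15.8%). Between SA and LA 3 were called (15.3%), 2 higher in SA (7.03%) and 1 lower (8.26%). Between PV and LA 4 were called (13.5%), all 4 higher in PV (6.99%) and none lower (6.51%). PV against SA gave 2 (3.49%), *Scn3b* higher (2.71%) and *Scn4b* lower (0.783%). No member was called between LV and RV by limma, where 0.522% of genes were, and 3 had an unadjusted p under 0.05, namely *Scn1a*, *Scn3b* and *Scn4b*, as had 1727 of all 16089 genes. In PA all 7 were called (59.1% of all genes), 3 higher (31.4%) and 4 lower (27.7%), and 1 of these 4 was *Scn10a*, at background in PA and on 17 of 19 heart arrays. The calls of *Scn10a* counted for SA against V, SA against LA and PV against LA also rest on signals mostly at background. These comparisons share arrays, since LA, SA, PV and V each enter several. The median difference of the members was 0.89 in PV against LA, beside -0.03 over all genes. It was -0.32 in SA against V (-0.06 over all genes) and 0.42 in SA against LA (0.01). In PV against SA it was 0.24 (-0.04), and in LV against RV 0.16 (0.01). In LA against V the median member was *Scn10a*, at background on all arrays of both, and in PA against heart it was *Scn10a* too, so no median is given for these comparisons.

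**Figure D4:**
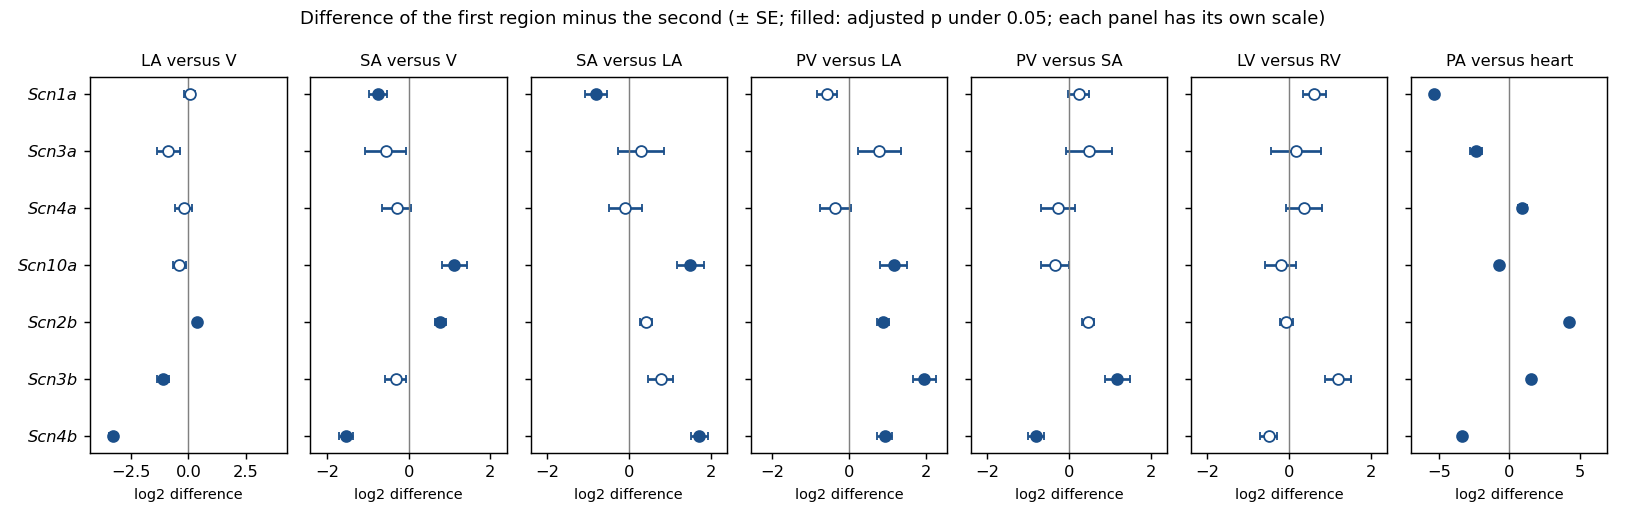
Log2 difference of each measured subunit gene in 7 comparisons (horizontal axis, first region minus second, a separate scale per panel), with the SE as bars and filled points where the adjusted p was under 0.05. The panel of PV against LA has 4 filled points, all above 0, and that of LV against RV has none.

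The specificity measure of the study sets the mean level in a region against the root of the summed squares of the LA, V and SA means, and is about equal in the 3 regions for a gene at the same level in each. It was 0.657 in V for *Scn4b* and 0.696 in SA for *Scn10a*, the latter from signals mostly not above background. For the other members the highest of the 3 values was 0.596 for *Scn1a* (LA), 0.614 for *Scn3a* (V), 0.592 for *Scn4a* (V), 0.600 for *Scn2b* (SA) and 0.616 for *Scn3b* (V).

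Over the 23 arrays, the genes most like each member were found by Pearson correlation, given as a description over arrays that share regions. PA is among these arrays, and r without PA was computed only for pairs of members. *Scn1a* was followed most closely by *Lrrc14b* and *Yipf7* (r = 0.99 each) and *Bzw2* (0.98). *Scn4b* was followed by *Tbrg4*, *Mrpl38* and *Ncf1* (0.98 each) and *Scn2b* by *Lpp*, *Gng8* and *Mmp16* (0.99 each). The nearest to *Scn3b* were *Slc2a3* and *Thbs4* (0.88 each) and *Tinagl1* (0.85), and to *Scn3a* *Pcdh17* and *Xdh* (0.87 each) and *Ebf3* (0.86). *Scn4a* was nearest to *Accsl* (0.96) and *Gatd1* (0.95). *Scn10a* was above background on all arrays of no region and was not entered. Among the members, *Scn1a* and *Scn2b* had r = -0.97 over 23 arrays and -0.58 over the 19 without PA, and *Scn2b* and *Scn4b* -0.79 and -0.50.

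Other genes of the sodium channel complex and of sodium transport were listed as partners, and 28 were tested. They comprised 6 further subunit genes, 4 intracellular FGF partners, 7 anchoring and scaffold genes, 4 genes of trafficking and regulation and 7 of sodium transport. Between LA and V 7 were higher in LA (16.9% of all genes) and 7 lower (18.4%). *Fgf12*, an intracellular FGF that binds the tail of the pore, was higher in LA by 1.47 (SE 0.14, adjusted p = 1.53e-07) and in SA than in V by 1.51 (adjusted p = 1.45e-07). *Rangrf*, which takes part in bringing the cardiac pore to the membrane, was lower in LA by -0.96 (SE 0.11, adjusted p = 1.35e-06).

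Between SA and V 9 partners were higher in SA (12.3% of all genes) and 6 lower (15.8%), and between SA and LA 5 (7.03%) and 1 (8.26%). In PV 6 were higher than in LA (6.99%) and 3 lower (6.51%). *Fgf13*, of the same family as *Fgf12*, was lower in PV than in LA by -1.03 (SE 0.20, adjusted p = 0.00167). PV exceeded SA in 1 (2.71%) and fell below it in 0 (0.783%), and LV and RV differed in 0 of 28 by limma (0.522%). In PA 4 were higher than in heart (31.4% of all genes) and 16 lower (27.7%), with a median of -0.73 beside 0.05 over all genes. The atrial and ventricular myocyte markers were also lower in PA in 5 of 5 and 3 of 3, the smooth muscle markers were higher in 6 of 6, and their part in the partner differences was not tested. *Actn2*, the Z-disc actinin that anchors the channel in myocytes, was lower in PA by -6.45 (SE 0.11, adjusted p = 2.09e-19).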

How the data were processed

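RNA of 23 rat samples was labeled with Cy3 and hybridized singly to the SurePrint G3 Rat array of Agilent (8x60K, version v2). The authors' deposited normalized values are linear intensities, from which Agilent Feature Extraction 11.0.1.1 had removed background and spatial trend and which the authors scaled to the 90th percentile. The deposited scanner output holds the processed intensity, the median spot and background intensities, and flags of 0 or 1 for spots well above background. Samples were grouped by region from their titles. Probes were named through RefSeq accessions of build GRCr8 (21109 probes, 16544 genes), not through the Ensembl identifiers of the methods. The highest probe per gene and array was taken, 1 was added, log2 was taken, and 16089 genes above 4 on at least 1 array were tested. Region means were fitted in limma 3.58.1 (R 4.3.3) over all 23 arrays, with Benjamini-Hochberg adjustment over all genes and a threshold of 0.05. The script was tested on simulated data. Alternatives were other scalings, background correction, filters, a pseudocount of 16, slide, row or replicate number as terms, single rows or slides, the methods' analysis of variance over LA, V and SA, and leaving out each array. Named partners were taken from the 3 largest called differences per comparison with a probe above background throughout the higher region. Like genes were taken from the 3 with the highest r. Some partners, subunit genes and like genes are not reported here by name. The members, lists and tests were chosen with earlier results of these data known. The intensities carry no counting depth. Other probes and the mouse and human data of the study were not analysed here.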

Additional observations from a re-analysis of the deposited data

Results flagged for a closer look

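Across 42 sets of a member in a region of 4 arrays or in V, an array stood apart by Dixon's criterion in 3, and chance gives about 1 in 20. *Scn2b* on SA1 was 10.02 against 10.42 to 10.45 on the other SA arrays (gap over range 0.934). *Scn3b* on SA1 was 7.46 against 7.82 to 7.87 (gap over range 0.876). *Scn4b* on PV2 was 9.41 against 10.21 to 10.25 on the other PV arrays (gap over range 0.944). PV2 is the only PV array in the first row.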

How the results depend on the processing

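Of 1232 values of 30 member differences under other settings, 1093 kept their direction and their side of the threshold, 124 lost the call, 11 gained it and 4 changed sign. The 4 were *Scn3b* in SA against LA on the second row (-0.20), *Scn2b* in PV against SA on the first row (-0.07), and *Scn1a* (0.15) and *Scn10a* (-0.03) in PV against LA on slide 3. The cause was not tested beyond the fewer arrays of these settings.

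Counts of called members moved by over 1.5 times mainly where only the arrays of 1 row or slide were used, which leaves few arrays. For the 6 regions the count went from 6 to 3 (slide 2). For LA, V and SA it went from 4 to 1 (second row), 0 (slide 1), 1 (slide 2) and 1 (slide 3). For LA against V it went from 3 to 5 (normexp), 1 (second row), 1 (slide 2) and 1 (slide 3), and for SA against V from 4 to 2 (first row), 1 (second row), 0 (slide 2) and 1 (slide 3). For SA against LA it went from 3 to 0 (first row), 1 (second row) and 0 on each slide. For PV against LA it went from 4 to 1 in each row, 0 on each slide and 2 with only LA and PV arrays. For PV against SA it went from 2 to 1 with each scanner scaling and with normexp, and to 0 in each row, on each slide, with unnamed accessions kept and with only PV and SA arrays. Leaving out 1 array gave 0 to 2 for PV against SA and 0 to 1 for LV against RV. In PA the count went from 7 to 3 (slide 2), and the pairs of regions from 54 to 34 (second row), 16 (slide 2) and 21 (slide 3).

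No pairing by replicate number was seen, since same-numbered arrays of different regions had a mean correlation of deviations of -0.018 (-0.376 to 0.336 over 55 pairs). The deviations also followed the array row (mean 0.08 in the same row and -0.074 in different rows). These values cannot show that same-numbered arrays came from different rats. With the replicate block *Scn1a* in SA against LA was no longer called (-0.80, adjusted p = 0.0531) and *Scn2b* was (0.42, adjusted p = 0.0408). Normexp moved the median of all genes in LA against V from -0.088 to -0.191 and in SA against LA from 0.007 to 0.169, and keeping unnamed accessions moved it to -0.113 in LA against V and 0.115 in PA. PA against heart has no value on slide 1, which holds no RV array, nor with only the arrays compared. Signal over background limits *Scn10a* everywhere and *Scn1a* and *Scn3a* in PA.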
